A study of Mus musculus with 6 samples.

Results

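The kinesin and dynein motor genes are the rows of the deposited expression table whose symbols begin with KIF and a number, KIFC, DYNC1, DYNC2, DYNLL, DYNLR, DYNLT, DCTN or KLC. They comprised 71 of 20036 genes. By role these were 9 mitotic kinesins (KIF11, KIF14, KIF15, KIF18A, KIF20A, KIF23, KIF2C, KIF4A and KIFC1), 33 other kinesins, 4 kinesin light chains, 5 subunits of cytoplasmic dynein 1, 4 of dynein 2, 10 dynein light chains and 6 dynactin subunits. The family was picked because the annotation term microtubule-based movement had been lower with melittin in these same libraries, and 62 of the 71 genes carry that term. Every difference between the groups below is therefore a description of the contrast that chose the genes, and no test of it is given as evidence.

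The libraries came from THP-1, a human monocytic leukaemia line, made macrophage-like with the phorbol ester PMA (100 ng/ml, 48 h) below the porous membrane of a Transwell dish. The design text then describes tumour cells above the membrane and a co-culture of 48 h with melittin, a bee venom peptide that disrupts membranes, at 3 µg/ml. Of the 6 libraries 3 carry the label Melittin and 3 the label NC, and the latter are called controls here. Neither what the NC wells received nor whether tumour cells were placed above them is stated, so melittin and co-culture cannot be told apart. THP-1 is 1 cell line, and nothing says that the libraries came from separate cultures, so the spread between libraries may be technical.

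Kinesins and dyneins are ATP-driven motors that walk along microtubules. Most kinesins move cargo towards the plus end, at the cell periphery, while cytoplasmic dynein with its cofactor dynactin moves cargo towards the minus end, near the centrosome. In macrophages these motors position lysosomes, endosomes and mitochondria. A separate set of kinesins builds the spindle, moves chromosomes and splits the daughter cells, and its genes are transcribed mainly in dividing cells. PMA slows division in THP-1 cells.

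Total counts ran from 16001423 to 19597781 per library. The organism label reads mouse, but 20036 gene identifiers were human and 0 were mouse. Of 12 macrophage markers 11 were tested, while CD68 had 1 count in all. Of the 11, 5 (45.5%) fell, 4 (36.4%) rose and 2 did not pass, where 38.3% of all tested genes fell and 38.1% rose. Of the 5 that fell, 4 did so at least 2-fold (CD163, CSF1R, LYZ and CD14). The sum of the 12 markers was 2221 to 2228 CPM (a gene's counts scaled to a fixed library size) in controls and 2022 to 2059 CPM with melittin. Of 5 T and NK cell markers, CD3D had 0 counts, and the sum was 31.0 to 34.1 CPM in controls and 136.0 to 142.0 CPM with melittin, nearly all from GNLY and NKG7. The sum of 5 fibroblast markers was 54.7 to 56.1 and 45.5 to 48.9 CPM, and COL1A2 had 0 counts. The part of any of these in the differences below was not tested.

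In the controls, kinesin transcripts were dominated by KIF5B (ENSG00000170759, chromosome 10, 32009015 to 32056425, minus strand, GRCh38), the ubiquitous heavy chain of conventional kinesin. Its level per length was 98.4 ± 2.32 FPKM (fragments scaled to gene length and library total, as deposited by the authors; SD, n = 3), 54.8% ± 0.725 of the summed FPKM of all 42 kinesins. KIF3B, a motor subunit of kinesin-2, followed at 19.1 ± 0.189 FPKM, then KIFC3, a minus-end kinesin, at 7.9 ± 0.476. KIF1B (6.28 ± 0.11) and KIF21B (6.14 ± 0.145 FPKM) came next and did not differ beyond their spread. KIF1C stood at 5.48 ± 0.265 and KIF2A, a depolymerase of microtubule ends, at 4.08 ± 0.192 FPKM.

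The mitotic kinesins sat far lower. The highest were KIFC1 at 2.33 ± 0.412 and KIF2C at 2.04 ± 0.0576 FPKM in controls, which overlapped in their spread. KIF11 (1.54 ± 0.0156) and KIF18A (1.43 ± 0.211) overlapped likewise. The lowest was KIF20A at 0.258 FPKM, with 27, 18 and 10 counts in control replicates 1, 2 and 3. Summed over the 9 genes, the level was 44.1, 44.8 and 48.3 CPM in the controls, against 1109 to 1132 CPM for the other 33 kinesins.

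Among dynein light chains the order was unlike that of the motor subunits. DYNLT5, of the Tctex family, was listed at 86.1 ± 1.35 FPKM in controls and stood above DYNLL1 (57 ± 0.138), the small chain shared by dynein and many other complexes. DYNLT1 followed at 33.4 ± 1.26 and DYNLT3 at 23 ± 1.94 FPKM. The only dynein 1 intermediate chain with more than 2 counts was DYNC1I2, at 20.4 ± 0.102 FPKM. Its paralog DYNC1I1, known from neurons, had 2 counts in all.

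Over the 9 mitotic kinesins, 7 fell with melittin, 0 rose and 2 did not pass. A gene is said to have passed when its adjusted p was below 0.05 in the edgeR quasi-likelihood fit over 12029 genes (Benjamini-Hochberg), in which 76.4% of genes passed, 38.3% lower and 38.1% higher. When library totals were the only scaling, 6244 genes fell and 3159 rose. Of the 7, 6 were at least 2-fold lower, against 9.96% of tested genes. The median log2 fold change was −1.62, against −0.007 over all tested genes. KIF15, KIF4A and KIF20A passed the low-count filter through the controls only, so their falls are a description and count as no support. Of the 6 that passed it in both groups, 4 fell, and their median was −0.93. In bulk RNA, fewer dividing cells and less transcript in each of them cannot be told apart.

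KIF15 (ENSG00000163808, chromosome 3, 44761721 to 44873376, plus strand), a plus-end motor that helps keep the spindle bipolar, had 3.2, 2.97 and 3.47 CPM in controls and 0.39, 0.334 and 0.603 CPM with melittin. The groups lay far apart, and the fitted value was 7.25-fold lower (log2 fold change −2.86, SE 0.304). The gene overlaps TMEM42 on the same strand, so reads in the shared stretch cannot be assigned with certainty. KIF11 (ENSG00000138160, chromosome 10, 92574105 to 92655395, plus strand), the tetrameric motor that pushes the spindle poles apart, had 7.63, 7.49 and 7.63 CPM in controls and 2.15, 1.89 and 1.68 CPM with melittin. All 3 controls were close to each other, and melittin libraries were 3.97-fold lower (−1.99, SE 0.166).

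KIF4A, the chromokinesin that sets the length of the central spindle, had 3.4, 3.49 and 4.39 CPM in controls against 0.65, 0.445 and 1.07 CPM, and was 5.25-fold lower (−2.39, SE 0.278). Its intronless copy KIF4B had 0 counts. KIF2C, which removes tubulin from microtubule ends at kinetochores, had 6.79, 6.73 and 7.11 CPM against 2.28, 2.34 and 2.08 CPM, 3.07-fold lower (−1.62, SE 0.163). KIF23, a centralspindlin subunit needed for cytokinesis, had 5.71, 4.71 and 5.09 CPM against 1.69, 1.61 and 2.15 CPM, 2.85-fold lower (−1.51, SE 0.195). In all 3 genes every melittin library lay below every control, as in 39.1% of all tested genes.

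KIF20A, which brings the chromosomal passenger complex to the midzone, had 1.33, 0.848 and 0.578 CPM in controls and 0.325, 0 and 0.335 CPM with melittin. The empty library, with 0 counts, allows up to 0.167 CPM (3 counts, counting error only). The fitted log2 fold change was −2.12 (SE 0.57), and −1.48 without melittin replicate 2. KIF4A and KIF20A overlap other genes on the opposite strand, and the sources used here do not give the strand setting of the counting.

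The remaining mitotic kinesins moved little. KIF14, a midbody kinesin that recruits citron kinase, had 5.12, 5.89 and 6.24 CPM in controls and 5.01, 4.12 and 4.49 CPM with melittin. Its lowest control lay just above the highest melittin library. The log2 fold change was −0.34 (SE 0.15) and no longer passed without control replicate 2 (−0.32) or 3 (−0.29), without melittin replicate 2 (−0.27) or 3 (−0.34), with DESeq2, limma-voom or the replicate block, or with the length trend removed. KIFC1, a minus-end motor that focuses spindle poles, had 5.86, 5.84 and 7.86 CPM against 6.57, 4.67 and 6.64 CPM, and KIF18A, which dampens chromosome oscillation, had 5.12, 6.88 and 5.89 CPM against 6.63, 5.57 and 6.3 CPM. In both genes the groups overlapped. Their log2 fold changes were −0.13 (SE 0.155) and 0.04 (SE 0.143), with signs that turned under some settings, and KIFC1 passed as lower (−0.361) when library totals were the only scaling. The ratio of KIF11 to KIF18A in FPKM, which no library scaling can alter, was 1.1 ± 0.17 in controls and 0.263 ± 0.033 with melittin.

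**Figure D1:**
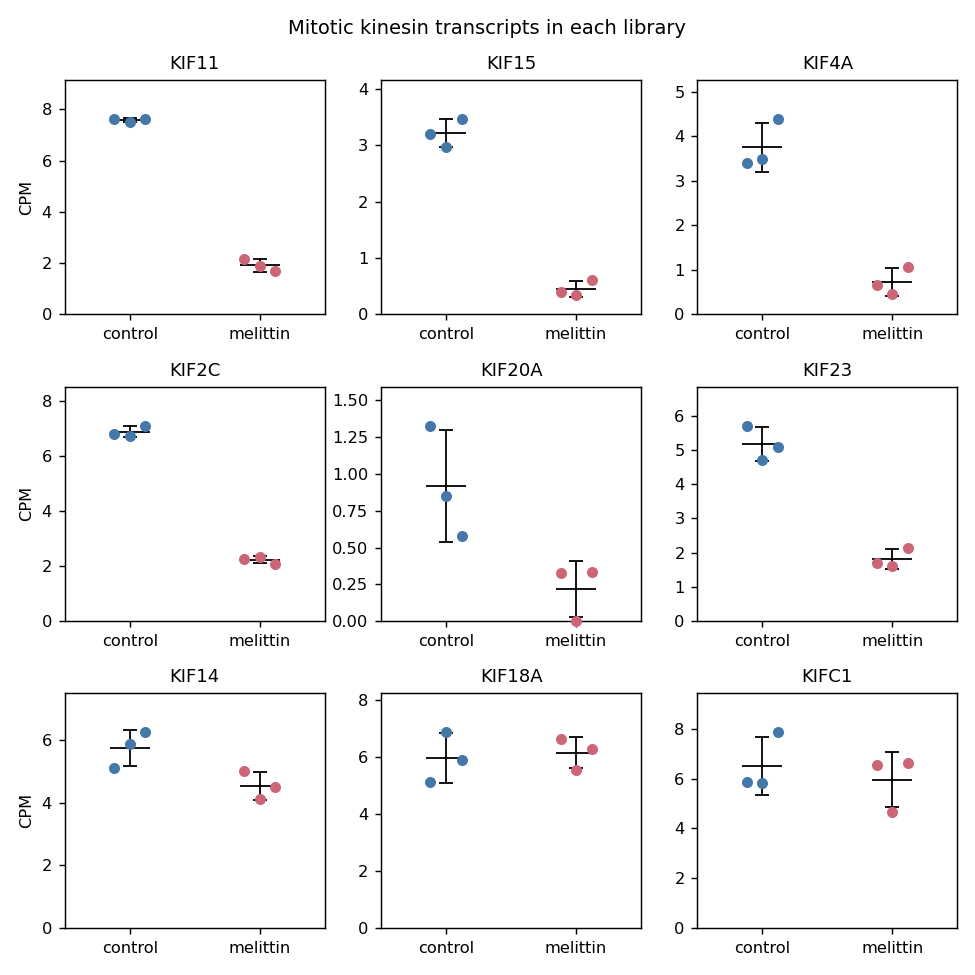
CPM of the 9 mitotic kinesins in each library (points; 3 control and 3 melittin libraries), with the mean and SD as bars and each axis starting at 0. In KIF11, KIF15, KIF4A, KIF2C, KIF20A and KIF23 the melittin points lie well below the controls, in KIF14 the groups nearly touch, and in KIF18A and KIFC1 they overlap.

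Outside that list, a further 5 kinesins were listed for a role in division, which does not mean that no others have one. KIF2B and KIF4B had 0 counts, and the 3 tested members fell, where 38.3% of all tested genes fell. KIF18B, a plus-end motor that works with KIF2C, had 2.26, 2.64 and 2.2 CPM in controls and 0.325, 0.445 and 1 CPM with melittin (−2.02, SE 0.332), having passed the low-count filter through the controls only. KIF20B, a cytokinesis motor, went from 13.3 ± 0.0854 to 10.6 ± 0.163 CPM (SD, n = 3), a fall by 0.32 on the log2 scale. KIF22, the chromokinesin Kid, had a log2 fold change of −0.33 and did not pass without control replicate 2 (−0.26) or melittin replicate 2 (−0.28).

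The partners of these motors in the spindle and at the midbody were lower as well. Of 31 listed genes 29 were tested. Of these 24 (82.8%) fell, 2 (6.9%) rose and 3 did not pass, where 38.3% of all tested genes fell and 38.1% rose. The median log2 fold change over the 29 was −1.36. Here 4 of the tested genes passed the low-count filter through the controls only. CDC20, the activator of the anaphase-promoting complex, was 4.39-fold lower, the proliferation marker MKI67 3.9-fold and CENPE, the kinetochore kinesin that the symbol rule misses, 3.99-fold (5.61, 5.56 and 6.07 CPM in controls, 1.3, 1.39 and 1.61 with melittin). CENPF, a kinetochore protein that binds dynein regulators, fell by 1.88 on the log2 scale. NDC80, the kinetochore's microtubule anchor, went the other way, from 8.16 ± 1.64 to 20.4 ± 0.726 CPM. INCENP also passed as higher (0.26), with overlapping groups. It did not pass with DESeq2, under scaling by totals only (0.03), when the totals left out the 20 most abundant genes (0.12), or without control replicate 1 (0.19) or 3 (0.27) or melittin replicate 1 (0.22) or 2 (0.17). RACGAP1, the partner of KIF23 in centralspindlin, had 7.89 ± 1.02 and 7.76 ± 1.2 CPM and did not pass. PRC1 and NUSAP1, microtubule bundlers, had 4 and 21 counts in all and were not tested. Both overlap an unnamed gene on the same strand.

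Of 20 DNA replication genes, all tested, 14 (70%) fell and 3 (15%) rose, where 38.3% of all tested genes fell and 38.1% rose. MCM4 and MCM3, subunits of the replicative helicase, were 2.13-fold and 2.23-fold lower, RRM2, which supplies deoxynucleotides, 3.68-fold and CDC45 5.78-fold. CDC45 was 1 of 3 genes of this list that passed the filter through the controls only. The 3 that rose were RRM1, CDT1 and MCM6. MCM6 was at −0.02 under scaling by totals only and at 0.082 when the totals left out the 20 most abundant genes. It passed under neither.

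Of the 33 other kinesins 22 were tested. Of these 18 (81.8%) fell, 3 (13.6%) rose and 1 (KIFC3) did not pass, where 38.3% of all tested genes fell and 38.1% rose. KIFC3 passed as lower under scaling by totals only (−0.213) and when the totals left out the 20 most abundant genes (−0.115), and as higher with the length trend removed (0.166). The median log2 fold change was −0.33, and 5 were at least 2-fold lower against 1 at least 2-fold higher, where 9.96% and 9.53% of tested genes were. Among these, KIF18B passed the low-count filter through the controls only, and the higher gene, KIF5C, through the melittin libraries only. Neither counts as support. Between the mitotic list and the other 45 tested members the medians differed by −1.30 on the log2 scale (−1.62 against −0.32). The mitotic value includes the 3 genes that passed the filter through the controls only, and was −0.93 over the other 6. Of those 45 genes 30 fell and 9 rose, but 34 and 5 when library totals were the only scaling, and 26 and 13 once a trend on gene length was taken out. The difference of medians was then −1.464. The mitotic kinesins have a median length of 4573 bases in the table and the other kinesins 7041, against 5540 over all tested genes. The other 11 kinesins were not tested. KIF19, KIF1A, KIF6, KIF2B and KIF4B had 0 counts, and KIF12, KIF25, KIF26A, KIF26B, KIF5A and KIF7 had at most 4 counts in any library.

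**Figure D2:**
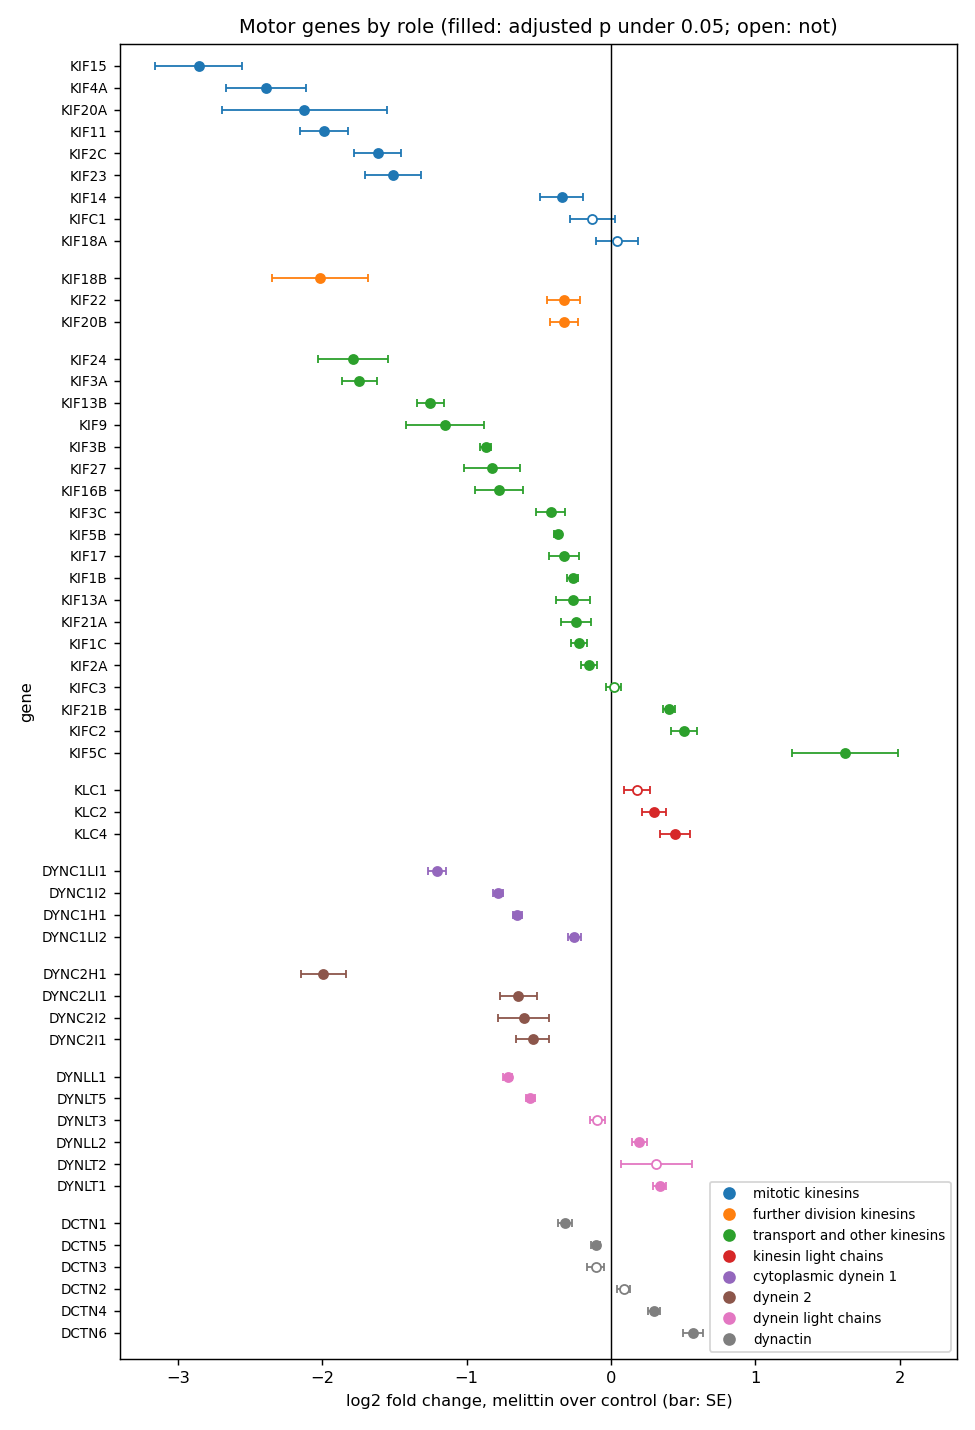
Log2 fold change of melittin over control, with its SE, for the 54 tested motor genes grouped by role; filled points passed an adjusted p of 0.05 and open points did not. Mitotic kinesins, the other kinesins, dynein 1 and dynein 2 lie mostly to the left of 0. Kinesin light chains lie to the right, and dynactin and dynein light chains on both sides.

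KIF5B, the most abundant motor, had 533.1, 544.9 and 520.7 CPM in controls and 412.3, 413.3 and 411.9 CPM with melittin. The groups were well apart, and the fall was modest (1.29-fold, log2 fold change −0.37, SE 0.0249). Its share of kinesin FPKM was 55.0% ± 0.427 with melittin, a difference from the controls smaller than their spread. The light chains that couple this motor to cargo went the other way. KLC4 had 8.46, 9.04 and 8.26 CPM in controls and 12, 11.2 and 12 CPM with melittin (0.45, SE 0.105), and KLC2 rose by 0.30 (SE 0.0821) on the log2 scale. KLC1 (0.18, SE 0.0906) did not pass, and KLC3 had 0 counts. KLC1 passed as higher without melittin replicate 1 (0.216) and with the length trend removed (0.414). Scaling by totals only moved the median of all genes to −0.238; under it neither KLC2 (0.067) nor KLC4 (0.214) passed, and KLC1 was at −0.049. KLC2 did not pass either when the 20 most abundant genes were left out of the totals (0.166). The ratio of KLC2 to KIF5B in FPKM, free of scaling, was 0.0345 ± 0.00124 in controls and 0.055 ± 0.00364 with melittin. KIF5C, the neuronal heavy chain, rose 3.08-fold from a very low level (26 counts over the controls, 66 with melittin) and passed the filter through the melittin libraries only.

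Kinesin-2, the heterotrimer of KIF3A, KIF3B and the adaptor KIFAP3, drives anterograde transport in cilia and moves late endosomes. All of its parts fell, where 38.3% of all tested genes fell. KIF3A (ENSG00000131437, chromosome 5, 132692628 to 132737638, minus strand) had 13, 14.5 and 12.7 CPM in controls and 4.1, 3.9 and 4.02 CPM with melittin, 3.35-fold lower (−1.74, SE 0.123). KIF3B had 106.8, 108.7 and 108.8 CPM against 56.5, 61.1 and 59.7 CPM, 1.83-fold lower. KIFAP3, which is outside the symbol rule, had 25.9, 24.5 and 25 CPM against 11.7, 11.3 and 12 CPM, 2.16-fold lower. KIF3A fell more than its partner: the FPKM ratio of KIF3A to KIF3B was 0.108, 0.119 and 0.104 in controls and 0.0646, 0.0568 and 0.06 with melittin. KIF3C, which can replace KIF3A, and KIF17, the homodimeric kinesin-2, fell by 0.42 and 0.32 on the log2 scale.

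Several other kinesins fell further. KIF24, a kinesin-13 at the mother centriole, had 3.35, 3.34 and 3.7 CPM in controls and 0.845, 1 and 1.14 CPM with melittin, 3.46-fold lower (−1.79, SE 0.241). KIF13B, a transporter of membrane vesicles, had 18.8, 19.1 and 19.7 CPM against 8, 7.74 and 8.45 CPM, 2.38-fold lower. KIF9, of motile cilia, was 2.22-fold lower at a level of 2.48 ± 0.518 CPM in controls. In all 3 genes the groups did not overlap, as in 77.4% of all tested genes. KIF27 (−0.82) and KIF16B (−0.78), an endosomal motor, fell to a lesser degree. KIF1B and KIF1C, carriers of organelles and vesicles, were 1.2-fold and 1.17-fold lower and did not pass with the length trend removed.

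Calls near the threshold were fragile in this group. KIF13A (−0.26), KIF21A (−0.24) and KIF2A (−0.15) passed with overlapping groups. KIF13A did not pass without control replicate 1 (−0.23) or 2 (−0.23) or melittin replicate 2 (−0.19) or 3 (−0.27), and KIF21A did not without control replicate 1 (−0.20) or 2 (−0.19) or melittin replicate 1 (−0.24) or 3 (−0.215). With DESeq2 none of the 3 passed. KIF2A did not pass without control replicate 1 (−0.14) or 3 (−0.14) or melittin replicate 1 (−0.09), and was at 0.067 with the length trend removed. The kinesins that rose besides KIF5C were KIFC2, a minus-end motor known from neurons, from 12.3 ± 0.907 to 17.5 ± 0.238 CPM, and KIF21B, which alters microtubule growth, from 69.0 ± 1.68 to 91.0 ± 2.26 CPM.

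The dynein, dynactin and kinesin light chain genes numbered 29, of which 23 were tested. Of these 12 (52.2%) fell, 6 (26.1%) rose and 5 did not pass, where 38.3% of all tested genes fell and 38.1% rose. Scaled by totals only, 15 fell and 2 rose, and 14 and 4 when the totals left out the 20 most abundant genes. Their median log2 fold change was −0.11, and −0.20 without control replicate 3 and −0.19 without melittin replicate 3, settings under which 24 genes were tested.

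In cytoplasmic dynein 1, the 4 tested subunits fell, where 38.3% of all tested genes fell. DYNC1H1, the motor heavy chain, had 221.2, 213.7 and 212.4 CPM in controls and 130.9, 142.2 and 139.5 CPM with melittin, 1.57-fold lower (−0.65, SE 0.033). DYNC1I2, the intermediate chain that binds dynactin, had 121.0, 120.3 and 121.8 CPM against 71.3, 71.1 and 68.5 CPM, 1.72-fold lower. The light intermediate chains, which hold the cargo adaptors, were unequal in their change. DYNC1LI1 (ENSG00000144635, chromosome 3, 32525974 to 32570858, minus strand) had 53.4, 53.7 and 55.9 CPM against 23.1, 21.9 and 25.7 CPM, 2.31-fold lower (−1.21, SE 0.0619). DYNC1LI2 had 62.9, 61.1 and 62.3 CPM against 51.8, 51.3 and 53.2 CPM, 1.19-fold lower (−0.25, SE 0.0464). The FPKM ratio of DYNC1LI1 to DYNC1LI2 was 1.124, 1.162 and 1.187 in controls and 0.591, 0.564 and 0.639 with melittin, so the order of these paralogs was inverted in every melittin library.

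Dynein 2, the retrograde motor of cilia, fell in 4 of 4 subunits, where 38.3% of all tested genes fell. Its heavy chain DYNC2H1 (ENSG00000187240, chromosome 11, 103109410 to 103479863, plus strand) had 10.1, 8.71 and 10 CPM in controls and 2.86, 2.06 and 2.35 CPM with melittin, 3.98-fold lower (−1.99, SE 0.155). The intermediate chains DYNC2I1 and DYNC2I2 and the light intermediate chain DYNC2LI1 fell by 0.54, 0.60 and 0.64. Their control levels were between 5.14 and 10.1 CPM. The groups did not overlap in any of the 4 genes, as in 77.4% of all tested genes (39.1% lower).

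**Figure D3:**
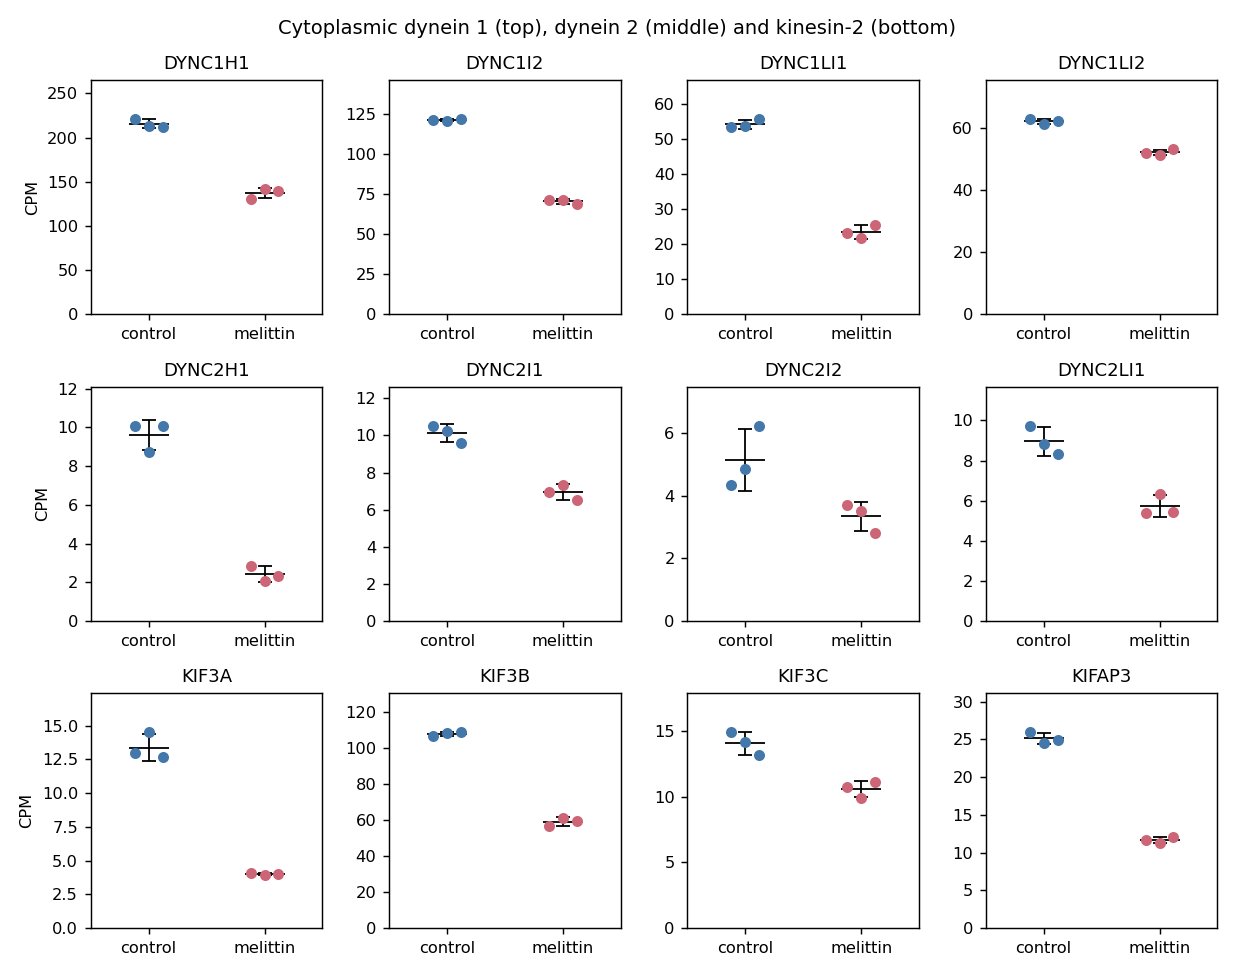
CPM in each library (points), with the mean and SD, for the dynein 1 subunits (top row), dynein 2 subunits (middle row) and kinesin-2 subunits with the adaptor KIFAP3 (bottom row); each axis starts at 0. All 12 genes are lower in every melittin library than in any control, as were 39.1% of all tested genes. DYNC2H1 and KIF3A are lower by more than their partners.

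The dynein light chains moved in opposite directions. DYNLL1 had 153.7, 154.4 and 154.5 CPM in controls and 92.5, 94.0 and 95.1 CPM with melittin (−0.72, SE 0.0331). DYNLT5 (chromosome 1, 66752459 to 66779047, plus strand) went from 267.2 ± 4.33 to 181.2 ± 5.99 CPM (−0.56, SE 0.0297). DYNLT1 went from 91.0 ± 3.45 to 114.6 ± 9.19 CPM (0.34, SE 0.0457) and DYNLL2 from 68.5 ± 0.37 to 78.5 ± 6.96 CPM (0.20, SE 0.05). Within each family one member thus fell while another rose, although DYNLL2 was at −0.034 under scaling by totals only and did not pass when the totals left out the 20 most abundant genes (0.064). Under either scaling 3 light chains fell and 1 rose. The FPKM ratio of DYNLL1 to DYNLL2 was 5.23 ± 0.0149 in controls and 2.79 ± 0.225 with melittin. DYNLT3 (−0.09) and DYNLT2 (0.31) did not pass. DYNLT3 passed as lower without control replicate 3 (−0.14) or melittin replicate 1 (−0.142), without a low-count filter and with the length trend removed. It also did so under scaling by totals only (−0.326) and when the totals left out the 20 most abundant genes (−0.227). DYNLRB1, the roadblock chain, had 14 counts over the controls and 8 with melittin. It overlaps an unnamed gene on the same strand, and DYNLRB2, DYNLT2B and DYNLT4 were likewise too low to test.

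Dynactin, the cofactor that ties dynein to its cargo, had members in both directions. Of its 6 subunits 2 (33.3%) fell, 2 (33.3%) rose and 2 did not pass, near the 38.3% and 38.1% of all tested genes. Scaled by totals only 4 fell and 1 rose, where 6244 of all 12029 tested genes fell and 3159 rose. With the length trend removed 2 fell and 4 rose, where 4542 of all tested genes fell and 4603 rose. Its summed level was 455.9 to 480.2 CPM in controls and 469.9 to 476.8 CPM with melittin. The sum of the dynein 1 subunits was 448.8 to 458.6 CPM and 277.2 to 286.8 CPM. DCTN1, the p150 arm that contacts microtubules, had 86.7, 84.4 and 79.9 CPM in controls and 72.3, 66.8 and 62.2 CPM with melittin (−0.32, SE 0.0486). DCTN6, at the pointed end of the filament, had 29.3, 28.7 and 30.2 CPM against 38, 47.8 and 44.4 CPM (0.57, SE 0.0692). It overlaps LEPROTL1 on the same strand. DCTN4 rose by 0.30 and did not pass under scaling by totals only (0.067), and DCTN5 fell by 0.11 but passed as higher with the length trend removed (0.111). DCTN2 (0.09) and DCTN3 (−0.11) did not pass. DCTN2 passed as lower under scaling by totals only (−0.144), and as higher without melittin replicate 3 (0.107) and with the length trend removed (0.248). DCTN3 passed as lower under scaling by totals only (−0.336) and when the totals left out the 20 most abundant genes (−0.238). It also did so with the length trend removed (−0.182). Of the filament's actin-related proteins, ACTR1B had 53.6, 54.6 and 54.4 CPM against 110.2, 109.6 and 103.5 CPM, while ACTR1A fell by 0.23 and ACTR10 by 0.88. The FPKM ratio of ACTR1B to ACTR1A went from 1 ± 0.0339 to 2.34 ± 0.0798.

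These actin-related proteins belong to a list of 35 adaptors and regulators of motors. Of 33 tested, 17 fell and 13 (39.4%) rose, where 38.3% and 38.1% of all tested genes did. Scaled by totals only, 21 fell and 9 rose. KIFBP, which holds kinesins off microtubules, was 1.89-fold lower. TRAK2, a mitochondrial adaptor, fell by 1.01 and NIN, a dynein activator, by 0.85. MAPK8IP3, the adaptor JIP3, rose by 1.09. PLEKHM2, which couples lysosomes to kinesin-1, rose by 0.53. RILP, which couples late endosomes to dynein, had 1.92, 1.27 and 0.925 CPM in controls and 8.52, 7.4 and 5.23 CPM with melittin (2.34, SE 0.223), and was chosen after its values were seen.

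Of 36 tubulins and microtubule-associated proteins, which form and dress the tracks, 29 were tested, of which 16 fell (55.2%) and 8 rose (27.6%), beside those same shares of all tested genes. TUBA1A had 160.3, 150.2 and 161.4 CPM in controls and 41.8, 38.5 and 42.0 CPM with melittin, 3.87-fold lower. TUBB4B was 2.63-fold lower, and TUBA1C fell by 1.01. Tubulin genes of one class are near-identical in their coding sequence, so the division of reads among them is uncertain. CLIP1, a plus-end tracking protein that recruits dynactin, fell by 0.87. TUBA4A, chosen after its values were seen, was 1.56-fold higher, which was not the largest rise. Of the 29 tested, 6 were at least 2-fold lower and 4 at least 2-fold higher, where 9.96% and 9.53% of all tested genes were. Among the 29, 1 passed the low-count filter through the controls only and 1 through the melittin libraries only. The largest rise in the list was 2.36 on the log2 scale.

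Over all 71 motor genes, 54 were tested. Of these 37 (68.5%) fell, 9 (16.7%) rose and 8 did not pass, where 38.3% of all tested genes fell and 38.1% rose. Among the 54, 4 passed the low-count filter through the controls only and 1 through the melittin libraries only. The 3 controls and 3 melittin libraries did not overlap in 35 genes that were lower and 10 that were higher, where 77.4% of all tested genes did not overlap, 39.1% lower and 38.3% higher. Summed over all 71 genes, the level was 2788 to 2827 CPM in controls and 2275 to 2295 CPM with melittin. Of the 26 other genes that carry the term microtubule-based movement, 13 were tested. Of these 9 (69.2%) fell and 2 (15.4%) rose, beside the same 38.3% and 38.1% of all tested genes. The lower level of this term is what picked the family, so these genes give no separate support. CENPE, described above, is among them.

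**Figure D4:**
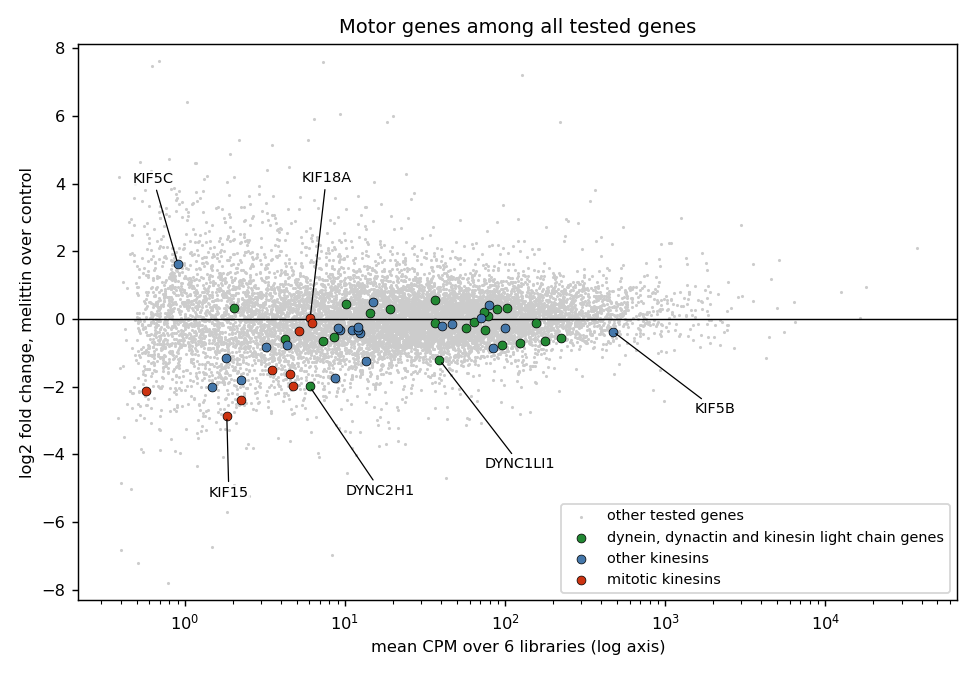
Log2 fold change (melittin over control) against mean CPM over the 6 libraries (log axis) for all 12029 tested genes (grey), with mitotic kinesins (red), other kinesins (blue) and dynein, dynactin and kinesin light chain genes (green). Mitotic kinesins lie at low CPM and mostly below 0, and the most abundant motor, KIF5B, lies slightly below 0.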

How the data were processed

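RNA from 3 control and 3 melittin libraries was sequenced. The authors deposited raw read counts per gene and FPKM values, which equal the count divided by gene length and library total within a relative deviation of 2.2e-09 (at 20 counts or more). Per the submitters' processing notes the build was GRCh38. The sources used here do not give the aligner, counter, strand setting or annotation. A second deposited table repeats the FPKM values and was not used.

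Counts were fitted with edgeR 4.0.16 in R 4.3.3: filterByExpr (12029 of 20036 genes), TMM scaling (factors 0.921 to 1.08), glmQLFit and glmQLFTest, Benjamini-Hochberg adjustment over all tested genes, threshold 0.05. CPM use the TMM library sizes. An SE is the log2 fold change without its sign over the square root of F. The steps were also run on simulated data in which a small part of the genes was changed. That run does not cover scaling where most genes differ, as they do here. A single count was worth 0.0471 to 0.067 CPM. All pairs of libraries differed by more than sampling noise (chi-square per degree of freedom 1.73 to 3.92 within groups).

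Members and gene lists were chosen with earlier results of these data known. Named genes were all mitotic kinesins and, per role, the most abundant member and the 4 largest log2 fold changes among passing members whose mean reached 1 CPM. In other lists the 4 smallest adjusted p decided. Further genes were chosen after their values were seen. Alternatives were DESeq2 1.42.0, limma-voom (limma 3.58.1), other scalings, filters, the length trend (loess), a replicate block, a 1.5-fold test and leaving out each library. No sequences are shown, since the reference provided was of mouse. The list of epithelial and prostate markers and 1 adaptor gene that the naming rule selects are not reported here.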

Additional observations from a re-analysis of the deposited data

How the results depend on the processing

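The number of mitotic kinesins that fell, 7, was 6 to 8 under the alternatives run. KIF11, KIF15, KIF2C, KIF23 and KIF4A passed as lower under all of them. The 7 include KIF15, KIF4A and KIF20A, which passed the low-count filter through the controls only, so these counts are no support for those genes. Of the 6 genes that passed the filter in both groups, 4 fell in the main fit. Scaling by library totals alone moved the median log2 fold change of mitotic kinesins to −1.847, of other kinesins to −0.558 and of dynein, dynactin and light chain genes to −0.338 (2 higher). Leaving the 20 most abundant genes out of the library sizes gave −0.459 and −0.24 for the latter groups, no low-count filter −0.368 and −0.199 (more genes tested), and removal of the length trend −0.164 for the dynein group and −1.464 for the difference between mitotic and other members. Leaving out 1 library each gave −0.199 to −0.116 for the dynein group. Against 1.5-fold, 3495 of 12029 tested genes passed, 1734 lower and 1761 higher, where 9190 passed in the main fit. There 6 of 22 other kinesins were lower and 1 higher, and 5 and 0 of 23 in the dynein group. Of 33 adaptors 5 were lower and 4 higher, and of 29 tubulins and associated proteins 8 and 4. Of 20 replication genes 8 were lower. With totals alone 33.6% of passing genes were higher, against 49.8%.

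Signs turned with totals alone in DYNLL2 (−0.034), KIF18A (−0.190), DCTN2 (−0.144), KLC1 (−0.049) and KIFC3 (−0.213), without the 20 most abundant genes in KIF18A (−0.092), DCTN2 (−0.046) and KIFC3 (−0.115), with the length trend removed in DCTN5 (0.111) and KIF2A (0.067), and without a filter in KIFC3 (−0.001). Among these, DCTN2 with totals alone, KIFC3 under both scalings by totals and DCTN5 passed in the turned direction. With DESeq2 size factors all 54 tested members kept their direction and their side of the threshold. Leaving out 1 library each gave −0.066 to 0.160 for KIF18A (negative without control or melittin replicate 1), −0.216 to 0.029 for KIFC1 (positive without control replicate 3, 0.011, or melittin replicate 2) and −0.033 to 0.053 for KIFC3 (negative without control or melittin replicate 1). The cause was not tested beyond what each setting itself changes.

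Same-numbered libraries did not deviate together (correlations −0.046, 0.018 and −0.019), and control replicates 1 and 3 correlated best with another number, so the numbers are not taken as pairs. With the replicate block 9050 genes passed, and KIF13A and KIF14 did not.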

Other observations

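Of 18 listed genes of axonemal dyneins, the motors of motile cilia, 12 were too low to test. Of the 6 tested, 3 (50%) fell, 1 (16.7%) rose and 2 did not pass, where 38.3% of all tested genes fell and 38.1% rose. DNAH17, an outer arm heavy chain, rose from 1.92, 1.55 and 1.27 CPM in controls to 5.14, 7.12 and 7.04 CPM with melittin. DNAL1, the axonemal light chain, was the most abundant of them and went from 20.9 ± 1.13 to 11.4 ± 1.6 CPM (SD, n = 3).

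Same-strand neighbours overlap 7 of the 71 motor genes, and 13 more have an overlap on the opposite strand only. DYNLRB1, a subunit known to be widely expressed, had 22 counts in all 6 libraries, and PRC1 and NUSAP1 had 4 and 21. All 3 overlap an unnamed gene on the same strand, while DCTN1 and KIF2A do so too and had 8177 and 5018 counts. Whether overlap lowered these counts was not tested.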
